A study of Mus musculus with 28 samples.

Results

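NF-kappaB target genes and innate sensors, 10 in all, were followed in the liver and muscle of obese mice given aspirin and trimetazidine. They were Tnf, Il1b, Icam1, Vcam1, Nfkbia, Tnfaip3, Nfkb1, Tlr2, Tlr4 and Cd14. These genes were chosen by name from 3 tables of 54163 genes for liver at 40 d, 54189 for muscle at 40 d and 54501 for both tissues at 24 h, and all 10 were found in each table. NF-kappaB is a family of transcription factors that are held in the cytoplasm by IkB proteins. Toll-like receptors, which sense microbial products, and the receptors of the cytokines TNF and IL-1 activate the IkB kinases, which mark IkB for destruction and release the factor to the nucleus. There it drives genes for cytokines, for adhesion molecules that hold leukocytes on endothelium, and for its own inhibitors, so that a pulse of activity ends itself. In the liver the pathway is active in Kupffer cells (the resident macrophages), in endothelium and in hepatocytes, and it is known for its part in steatohepatitis.

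Treated mice were given aspirin at 3.0 mg/kg (acetylsalicylate, a cyclooxygenase inhibitor) together with trimetazidine at 5.0 mg/kg (an inhibitor of fatty acid oxidation) by injection into the peritoneum every day, and vehicle mice were given the solvent alone. All mice were males of the Lepob/Lepob C57BL/6J genotype, which lack functional leptin, and from 4 weeks of age the cohort of 30 ate the AMLN diet for 20 weeks, with 40% of calories from fat, 20% from fructose and 2% cholesterol by weight, a food that produces steatohepatitis. The diet was kept up during treatment, so treated and vehicle mice shared both the mutation and the diet, and the values hold for that background. Each tissue at 40 d had 6 treated libraries (mice 4_5 and 5_1 to 5_5) and 6 vehicle libraries (mice 2_1, 2_3, 2_4, 2_5, 3_2 and 6_1), and at 24 h each tissue had 1 treated and 1 vehicle library, 28 in all.

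The first digit of a mouse number was never shared between treated and vehicle mice, so whatever it stands for cannot be told apart from treatment. Gene totals at 40 d were 16.8 to 18.9 M reads per liver library and 16.1 to 19.9 M per muscle library, and at 24 h 16.1 to 17.4 M. Hepatocyte markers summed to 21935 to 39312 FPKM in treated livers and 32041 to 37629 FPKM in vehicle livers. In liver 7 muscle fibre markers summed to 4.02 FPKM in treated mouse 4_5. Their sums were at most 0.218 FPKM in the other treated livers and 0.145 FPKM in vehicle livers. In muscle at 40 d the same 7 fibre markers summed to at least 30093 FPKM in every library, so the tissues were as labelled. The treated liver of mouse 4_5 stood apart at 40 d. Its 10 Kupffer cell markers summed to 2291 FPKM, against 687 to 991 FPKM in the other treated livers and 694 to 780 FPKM in vehicle livers. Its 10 neutrophil markers summed to 481 FPKM, against 34.5 to 127 FPKM in the other treated livers and 14.0 to 20.6 FPKM in vehicle livers. Values of the 10 genes and of the pathway and leukocyte lists at 40 d are therefore given with and without mouse 4_5, and so are the means of some other pathway genes.

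The promoters of the genes were read first, because NF-kappaB acts through kappaB sites. RefSeq promoter windows of build GRCm38.p6, with 250 bases before and 50 after the transcription start, were at hand for 6 of the 10 genes (Icam1, Il1b, Nfkbia, Tlr2, Tnf and Tnfaip3, which has 2). The kappaB consensus, a motif of 10 letters that is named and not spelled here because it holds ambiguous letters, was searched on both strands, and overlapping matches were merged. It was found in 3 of the 7 windows, against 2779 of 32851 windows of all genes (8.46%). A match is only a run of letters, and binding was not measured. The search finds exact matches only, so a window without one may still hold a variant site. Sequence beyond the windows was not searched. The 250 bases before the start of Nfkbia, which encodes the inhibitor IkB-alpha, and of Icam1, which encodes an adhesion molecule, are shown as a promoter with a match and one without. The match, in capitals, begins 29 bases before the start of Nfkbia. The Icam1 line holds a stretch that differs from this match in its last letter only, so it should not be read as lacking a kappaB site. The lines give the minus strand for Nfkbia at chr12:55492648-55492897 and the plus strand for Icam1 at chr9:21015690-21015939.
Nfkbia promoter: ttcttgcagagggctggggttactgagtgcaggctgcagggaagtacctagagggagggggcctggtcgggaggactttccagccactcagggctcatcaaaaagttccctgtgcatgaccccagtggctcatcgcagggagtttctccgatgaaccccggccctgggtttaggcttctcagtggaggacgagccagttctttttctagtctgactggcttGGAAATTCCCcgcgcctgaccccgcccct
Icam1 promoter: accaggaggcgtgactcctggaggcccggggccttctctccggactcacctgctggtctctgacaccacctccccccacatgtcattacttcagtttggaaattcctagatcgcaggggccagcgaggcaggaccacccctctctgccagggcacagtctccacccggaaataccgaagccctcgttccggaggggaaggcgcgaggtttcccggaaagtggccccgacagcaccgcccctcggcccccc
No match lay in the windows of Icam1, Il1b or Tnf, or in the downstream window of Tnfaip3. The other matches lay in Tlr2, beginning 173 and 8 bases before its RefSeq start, and in the upstream window of Tnfaip3, at 125 and 12 bases before its RefSeq start. Those starts lie 159 bases (Tlr2) and 247 bases (Tnfaip3) inside the gene spans of the deposited tables, so the proximal Tlr2 match and both Tnfaip3 matches fall within the genes as the tables bound them. Of all windows, 170 (0.517%) held at least 2 separate stretches as these do. The matches are shown in capitals within 30 bases of the minus strand, at chr3:83841762-83841791 and chr3:83841597-83841626 for Tlr2 and at chr10:19015516-19015545 and chr10:19015403-19015432 for Tnfaip3.
Tlr2 distal match: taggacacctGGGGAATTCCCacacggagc
Tlr2 proximal match: ccctgacctgGGGACATCCCcttccctcac
Tnfaip3 distal match: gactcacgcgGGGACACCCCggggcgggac
Tnfaip3 proximal match: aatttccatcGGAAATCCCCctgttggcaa

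The main comparison asked how 40 d of the combination bore on these genes in liver. Means of Il1b, Icam1, Tnfaip3, Tlr2, Cd14 and Nfkbia were 1.36 to 1.98 times as high in treated livers as in vehicle livers, Vcam1 was 0.916 times as high, and Nfkb1, Tlr4 and Tnf were 1.09 to 1.13 times as high. None of the 9 genes that could be tested was called, which here means a limma adjusted p under 0.05 over all genes tested (6 against 6 libraries, on log2(FPKM + 1), genes that reached 1 FPKM in at least 6 of 12 libraries). Adjusted p-values from limma were 0.179 to 0.778, and limma voom on the reads recovered from the FPKM also called none. Of all 10995 genes tested, 28 were called, or 0.255%. Unadjusted p was under 0.05 for 5 of the 9, against 13.2% of all genes (1455). FPKM is a count of fragments scaled to gene length and library, and each log2 fold change divides treated by vehicle after 1 FPKM has been added, so low genes appear less changed than they are. In these whole tissues, a change in the number of cells that carry a transcript and a change in RNA per cell cannot be told apart.

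Log2 fold changes were positive for 8 of the 9 genes, with a median of 0.48 over the 9 genes, against a median of -0.003 and 49.0% positive over all genes tested. Without mouse 4_5 the median was 0.35 and 8 of 9 were still positive. Treated and vehicle livers overlapped for all 10 genes. Over all genes tested, the groups did not overlap for 127, or 1.16%.

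**Figure D1:**
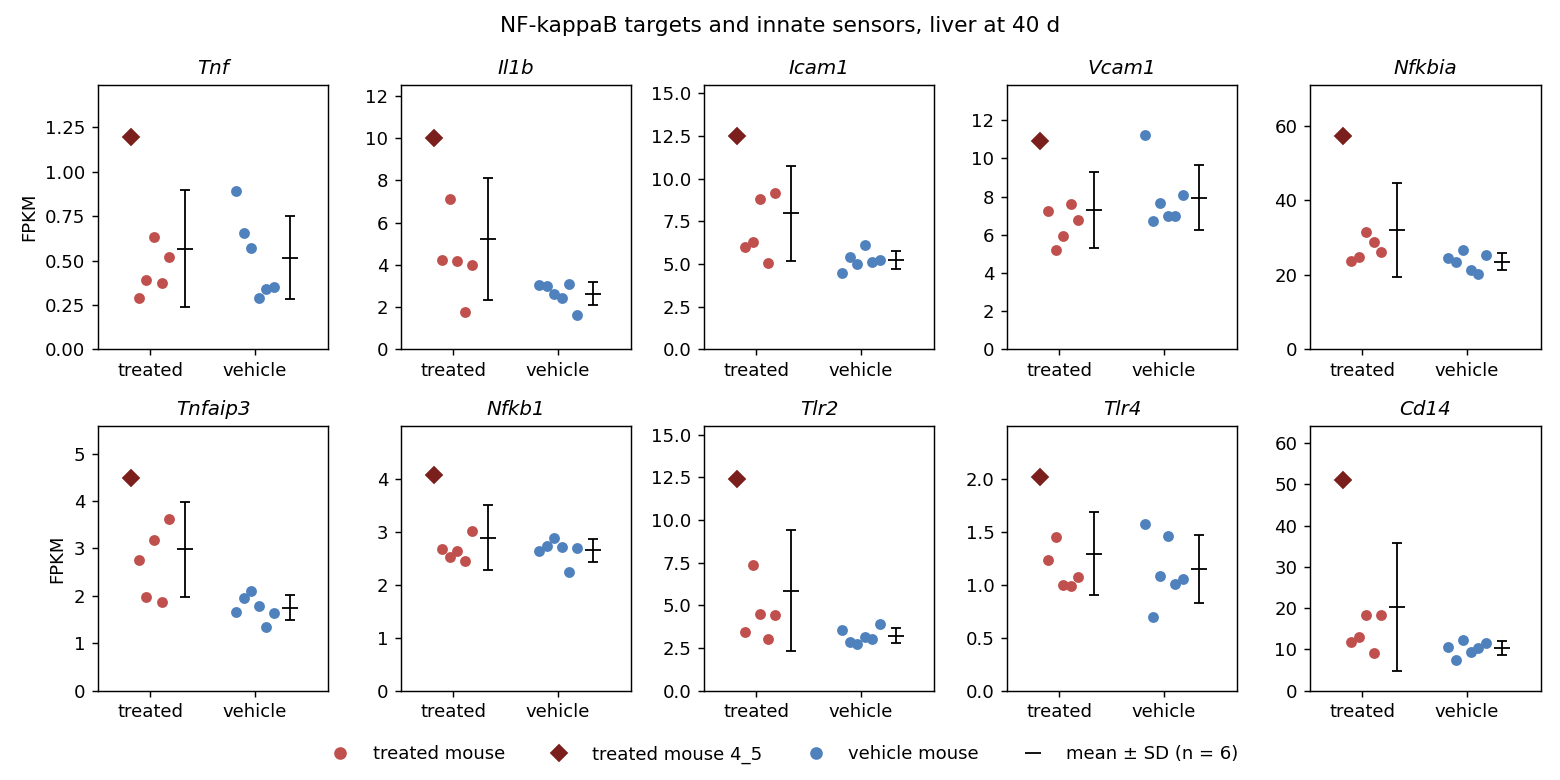
FPKM of the 10 genes in each liver at 40 d, with treated mice (mouse 4_5 as a diamond) beside vehicle mice and the mean ± SD of 6 libraries to the right of each group. The diamond is the highest of the 12 livers for every gene but Vcam1, and the other treated livers overlap the vehicle livers in each panel.

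Among the cytokines, Il1b encodes IL-1beta, a cytokine that is released by inflammasomes and signals back to NF-kappaB. It lies on chromosome 2 (129364570 to 129371139, minus strand, GRCm38, as do all gene positions here). Its treated livers had a lowest value of 1.75, a median of 4.22 and a highest of 10.01 FPKM, against 1.65, 2.81 and 3.07 FPKM in vehicle livers. Il1b exceeded every vehicle liver in 5 of 6 treated livers, and treated mouse 5_4 was the exception, within the vehicle range. Means were 5.22 ± 2.90 FPKM in treated livers and 2.64 ± 0.553 FPKM in vehicle livers (SD, n = 6 each), and the log2 fold change was 0.66 (SE 0.26, limma adjusted p 0.307). Without mouse 4_5 it was 0.47 (limma adjusted p 0.376). Tnf, the gene of the cytokine TNF on chromosome 17 (35199381 to 35202007, minus strand), was below the filter in liver. Treated livers had 0.291, 0.456 and 1.19 FPKM as lowest, median and highest, against 0.287, 0.462 and 0.890 FPKM in vehicle livers. Those values rest on 9 to 37 reads in treated and 9 to 27 reads in vehicle livers, and only mouse 4_5 lay above the vehicle range. The exact permutation test of Tnf gave p = 0.794 (two-sided, over every relabelling of 6 against 6 libraries), and without mouse 4_5 the treated mean was 0.442 FPKM, against 0.516 FPKM in vehicle livers (exact permutation p = 0.587).

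Of the adhesion molecules, Icam1 (chromosome 9, 21015985 to 21028817, plus strand) encodes the ligand of leukocyte integrins on endothelium and other cells. Treated livers had 5.05, 7.52 and 12.5 FPKM as lowest, median and highest, against 4.47, 5.18 and 6.10 FPKM in vehicle livers. Every vehicle liver was exceeded by 4 of 6 treated livers, while those of mice 5_1 and 5_4 fell within the vehicle range. The log2 fold change was 0.48 (SE 0.16, limma adjusted p 0.238), and 0.35 without mouse 4_5 (limma adjusted p 0.271). On the opposite strand, Gm47079 overlaps 11.7% of the exonic bases of Icam1, and with no record here of whether counting used strand, reads of that stretch cannot be told apart. Vcam1 (chromosome 3, 116109949 to 116129688, minus strand), which encodes the endothelial ligand of the integrin VLA-4, was the only gene tested with a negative value. Its treated livers had 5.21, 6.999 and 10.9 FPKM as lowest, median and highest, against 6.72, 7.34 and 11.2 FPKM in vehicle livers. Vehicle mouse 2_1 was the highest of the 12, treated mouse 4_5 came next, and treated mice 5_2 and 5_3 lay below every vehicle liver. For Vcam1 the log2 fold change was -0.12 (SE 0.15, limma adjusted p 0.758), and -0.24 without mouse 4_5 (limma adjusted p 0.439). Its 95% interval ran from -0.45 to 0.20, while that of Icam1 ran from 0.12 to 0.83.

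The feedback inhibitors are themselves induced by NF-kappaB. Tnfaip3 (chromosome 10, 19000910 to 19015657, minus strand) encodes A20, a ubiquitin-editing enzyme that shuts off signalling from TNF and Toll-like receptors. Treated livers had 1.87, 2.96 and 4.49 FPKM as lowest, median and highest, against 1.34, 1.72 and 2.11 FPKM in vehicle livers. Of the 6 treated livers, 4 exceeded every vehicle liver, and all 6 exceeded the vehicle mean. Means were 2.98 ± 1.004 FPKM in treated livers and 1.75 ± 0.267 FPKM in vehicle livers, and the log2 fold change was 0.50 (SE 0.15, limma unadjusted p 0.00442, adjusted p 0.179), the smallest p of the 9. It was 0.40 without mouse 4_5 (limma adjusted p 0.200). Nfkbia (chromosome 12, 55489410 to 55492647, minus strand) had the highest level of the 10 genes in both groups. Its treated livers had 23.7, 27.4 and 57.3 FPKM as lowest, median and highest, against 20.3, 24.0 and 26.6 FPKM in vehicle livers. Each of the 6 treated livers exceeded the vehicle mean of 23.6 FPKM, though only those of mice 4_5, 5_3 and 5_4 lay above every vehicle liver. Its log2 fold change was 0.36 (SE 0.18, limma adjusted p 0.403), and 0.18 without mouse 4_5 (limma adjusted p 0.421).

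Nfkb1 (chromosome 3, 135584655 to 135691547, minus strand) encodes p105, the precursor of the p50 subunit. Treated livers had 2.45, 2.65 and 4.07 FPKM as lowest, median and highest, against 2.24, 2.71 and 2.88 FPKM in vehicle livers. Apart from mouse 4_5, only the liver of treated mouse 5_5 (3.01 FPKM) lay above the vehicle range. The log2 fold change was 0.08 (SE 0.09, limma adjusted p 0.737), and 0.003 without mouse 4_5, with a mean of 2.66 ± 0.215 FPKM in the 5 other treated livers and 2.65 ± 0.217 FPKM in vehicle livers.

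Among the sensors, Tlr2 (chromosome 3, 83836272 to 83841767, minus strand) encodes a receptor of bacterial lipoproteins. Treated livers had 3.05, 4.46 and 12.4 FPKM as lowest, median and highest, against 2.73, 3.11 and 3.91 FPKM in vehicle livers. As for Icam1, 4 of 6 treated livers exceeded every vehicle liver, with mice 4_5 and 5_2 (7.38 FPKM) the highest. The log2 fold change was 0.58 (SE 0.24, limma adjusted p 0.325), and 0.36 without mouse 4_5 (limma adjusted p 0.346). Cd14, on chromosome 18, encodes a co-receptor that hands lipopolysaccharide to the Tlr4 complex. It had 9.18, 15.6 and 51.1 FPKM as lowest, median and highest in treated livers, against 7.50, 10.5 and 12.2 FPKM in vehicle livers. Mouse 4_5 reached 4.97 times the vehicle mean, the largest such ratio of the 10 genes. The log2 fold change of Cd14 was 0.70 (SE 0.31, limma adjusted p 0.355), and 0.39 without mouse 4_5 (limma adjusted p 0.338). Tlr4 itself (chromosome 4, 66827584 to 66930284, plus strand), the receptor of lipopolysaccharide, had 0.992, 1.15 and 2.02 FPKM as lowest, median and highest in treated livers, against 0.696, 1.07 and 1.58 FPKM in vehicle livers. Only mouse 4_5 lay above the vehicle range. Its log2 fold change was 0.09 (SE 0.12, limma adjusted p 0.778), and 0.01 without mouse 4_5.

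Read mouse by mouse, the liver of treated mouse 4_5 was the highest of the 12 for 8 of the 9 tested genes (all but Vcam1), against 14.0% of all genes tested, and for Tnf as well. Counted against vehicle, mouse 4_5 exceeded every vehicle liver for 8 of the 9 tested genes, where it did so for 21.3% of all genes. Mice 5_3 and 5_5 exceeded every vehicle liver for 6 of the 9 each, against 26.6% and 19.8% of all genes. For mouse 5_2 it was 4 of the 9, against 15.5% of all genes. Mouse 5_1 did so for 2 of the 9 and mouse 5_4 for 1, against 14.0% and 16.0% of all genes. The median over the 9 genes of log2(FPKM + 1) relative to the vehicle mean was 1.12 in mouse 4_5, 0.40 in mouse 5_3, 0.37 in mouse 5_5, 0.21 in mouse 5_2, 0.09 in mouse 5_1 and -0.05 in mouse 5_4. Over all genes those medians lay between -0.02 and 0.02.

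Leukocyte markers were read beside these genes. All 10 Kupffer cell markers had positive log2 fold changes in liver, and none was called or at 0 (median 0.41, and 0.18 with 9 positive without mouse 4_5). The 11 monocyte and macrophage markers summed to 1738 FPKM in mouse 4_5, 394 to 664 FPKM in the other treated livers and 362 to 548 FPKM in vehicle livers. Of 8 tested members 5 were positive (median 0.06), and without mouse 4_5 4 were, with a median of -0.002. Of the 10 neutrophil markers, 5 could be tested and all 5 were positive (median 1.98, and 1.62 without mouse 4_5). That count is not independent of the filter. Camp, 1 of the 5, averaged 5.30 FPKM in treated and 0.230 FPKM in vehicle livers, so it passed mainly through treated livers. The sums of all 10 markers did not overlap between treated and vehicle livers even without mouse 4_5. S100a9, a calcium-binding protein abundant in neutrophils, was called, at 77.0 FPKM in treated livers and 7.87 FPKM in vehicle livers on average (limma adjusted p 0.0449). Without mouse 4_5 its treated mean was 43.1 FPKM (limma adjusted p 0.0348). The call was not kept with voom (adjusted p 0.125), with equal totals (0.0538) or with either other filter (0.0582 and 0.147). With a library left out it was kept in 3 of 12 cases (without treated mouse 4_5, 5_2 or 5_4), and limma's adjusted p over the 12 ran from 0.0326 to 0.120. Of all 17 alternatives it was kept in 4. Endothelial markers, by contrast, summed to 85.2 FPKM in mouse 4_5, 39.0 to 70.8 FPKM in the other treated livers and 54.9 to 76.9 FPKM in vehicle livers. Of 10 tested members 3 were positive (median -0.05), and without mouse 4_5 2 were, with a median of -0.17. Red cell markers were positive in 5 of 5 (median 0.68, and 0.71 without mouse 4_5), with sums of 503 to 2551 FPKM in treated livers and 375 to 1568 FPKM in vehicle livers. Mitochondrial genes took 3.73% to 4.41% of reads in treated livers and 4.37% to 6.54% in vehicle livers. The part of cell numbers, blood or RNA quality in the values of the 10 genes was not tested.

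Pairs of the genes were also compared across livers. Of 36 pairs among the 9 tested genes, Pearson's r of log2(FPKM + 1) over the 12 livers passed an adjusted permutation p under 0.05 in 19, while Spearman's rho passed in 0. The median r was 0.69, and 0.28 without mouse 4_5. It was 0.14 without the 2 livers farthest from the median of the first gene of each pair. How often pairs drawn from all genes would pass was not computed, so the 19 have no share beside them. By Pearson's r over all 12 livers Icam1 and Tnfaip3 were the closest pair, with r = 0.916 (permutation p = 0.0002, adjusted p = 0.00708 over 36 pairs) and rho = 0.699 (permutation p = 0.0134, adjusted p = 0.107). Their r was 0.853 without mouse 4_5 and 0.752 without the 2 livers farthest from the median of Icam1. Within groups, after the group means were taken out, it was 0.854, where Nfkb1 and Tnfaip3 reached 0.870. By rho, Tlr2 with Cd14 and Cd14 with Tnfaip3 came first (0.748 each, adjusted permutation p = 0.107). Icam1 and Vcam1, both adhesion molecules, were not a close pair, with r = 0.043 over all livers and -0.603 without mouse 4_5. Over the 10994 other genes tested, those closest to Icam1 were S100a8 (r = 0.963), Camp (0.943) and Nfkbie (0.940), and those closest to Tnfaip3 were Nfkbie (0.954), S100a8 (0.948) and Ctdnep1 (0.945), as a description over 12 livers. S100a8 and Camp encode a cytosolic and a granule protein of neutrophils, and Nfkbie encodes IkB-epsilon.

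Further genes of the pathway were read from lists by role, and none of their tested members was called in liver. Of 16 tested subunits, IkB proteins and kinases, 11 had positive log2 fold changes and 5 negative (median 0.13, and 0.08 with 10 positive without mouse 4_5). Nfkbie averaged 3.57 FPKM in treated livers and 2.17 FPKM in vehicle livers (log2 fold change 0.47, limma adjusted p 0.279), and Nfkbiz, an atypical IkB protein, 3.56 and 2.06 FPKM (0.52, limma adjusted p 0.271). Chuk, the kinase IKK-alpha, averaged 22.1 FPKM in treated livers and 25.8 FPKM in vehicle livers (-0.23, limma adjusted p 0.319). Among 14 tested feedback regulators and ubiquitin editors 8 were positive (median 0.05), and without mouse 4_5 7 were, with a median of -0.02. They include Zc3h12a, an endoribonuclease that degrades cytokine transcripts, at 2.71 FPKM in treated livers (2.32 FPKM without mouse 4_5) and 1.67 FPKM in vehicle livers (0.44, limma adjusted p 0.207).

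Of 19 tested Toll-like receptors, co-receptors and adaptors, 14 were positive (median 0.11, and 0.07 with 12 positive without mouse 4_5). Myd88, the adaptor that most Toll-like receptors and the IL-1 receptor share, had the smallest adjusted p of the pathway lists. Its treated livers ran from 8.52 to 12.2 FPKM and its vehicle livers from 6.72 to 7.70 FPKM, with no overlap (log2 fold change 0.41, SE 0.08, limma adjusted p 0.0692). Tlr5, the receptor of flagellin, averaged 2.13 FPKM in treated livers and 3.11 FPKM in vehicle livers (-0.39, limma adjusted p 0.136). Lbp, the lipopolysaccharide-binding protein secreted by hepatocytes, averaged 38.1 FPKM in treated livers and 24.6 FPKM in vehicle livers (0.57, limma adjusted p 0.207). Unlike Cd14, the means of Myd88 and Lbp hardly moved without mouse 4_5, at 9.48 and 37.3 FPKM in the other 5 treated livers.

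Among 12 tested cytosolic sensors and inflammasome genes 8 were positive (median 0.06, and 0.07 with 8 positive without mouse 4_5). Gsdmd, whose product forms the pore through which IL-1beta leaves the cell, averaged 16.5 FPKM in treated livers and 12.8 FPKM in vehicle livers (0.33, limma adjusted p 0.189). Of 12 tested genes of TNF and IL-1 receptors and signalling 10 were positive (median 0.21, and 0.13 with 11 positive without mouse 4_5), with the IL-1 receptor Il1r1 at 7.53 FPKM in treated livers and 5.55 FPKM in vehicle livers (limma adjusted p 0.207). Further NF-kappaB target genes were positive in 17 of 21 tested (median 0.23, and 0.16 with 16 positive without mouse 4_5), against 49.0% of all genes. The cytokine gene Csf1 averaged 4.57 FPKM in treated livers and 3.10 FPKM in vehicle livers (limma adjusted p 0.158). Saa3, a serum amyloid A gene, averaged 37.3 FPKM in treated livers and 6.41 FPKM in vehicle livers (limma adjusted p 0.168), and Lcn2, which encodes the iron-sequestering protein lipocalin-2, 628 and 85.1 FPKM (limma adjusted p 0.199). Without mouse 4_5 the treated means were 33.2 and 537 FPKM for Saa3 and Lcn2. Both genes overlapped between the groups. Saa3 ran from 4.39 to 66.3 FPKM in treated livers and from 3.51 to 13.3 FPKM in vehicle livers. Lcn2 ran from 40.3 to 1376.5 FPKM in treated livers and from 64.0 to 116 FPKM in vehicle livers, so its lowest treated liver lay below every vehicle liver.

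The same comparison was made in muscle at 40 d. Treated and vehicle muscles overlapped for all 10 genes. None of the 8 genes tested was called, with a limma adjusted p of 0.999 for each, and neither was any of the 11708 genes tested, or 0.0%. Unadjusted p was under 0.05 for 1 of the 8, Tnfaip3, against 3.85% of all genes (451), and limma voom called none. Log2 fold changes were positive for 7 of the 8 with a median of 0.11, and without mouse 4_5 4 of 8 were, with a median of -0.02. Over all genes the median was -0.004, and the groups did not overlap for 30 genes, or 0.256%. Mouse 4_5 had the highest of the 12 muscles for all 8 tested genes, against 7.52% of all genes.

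**Figure D2:**
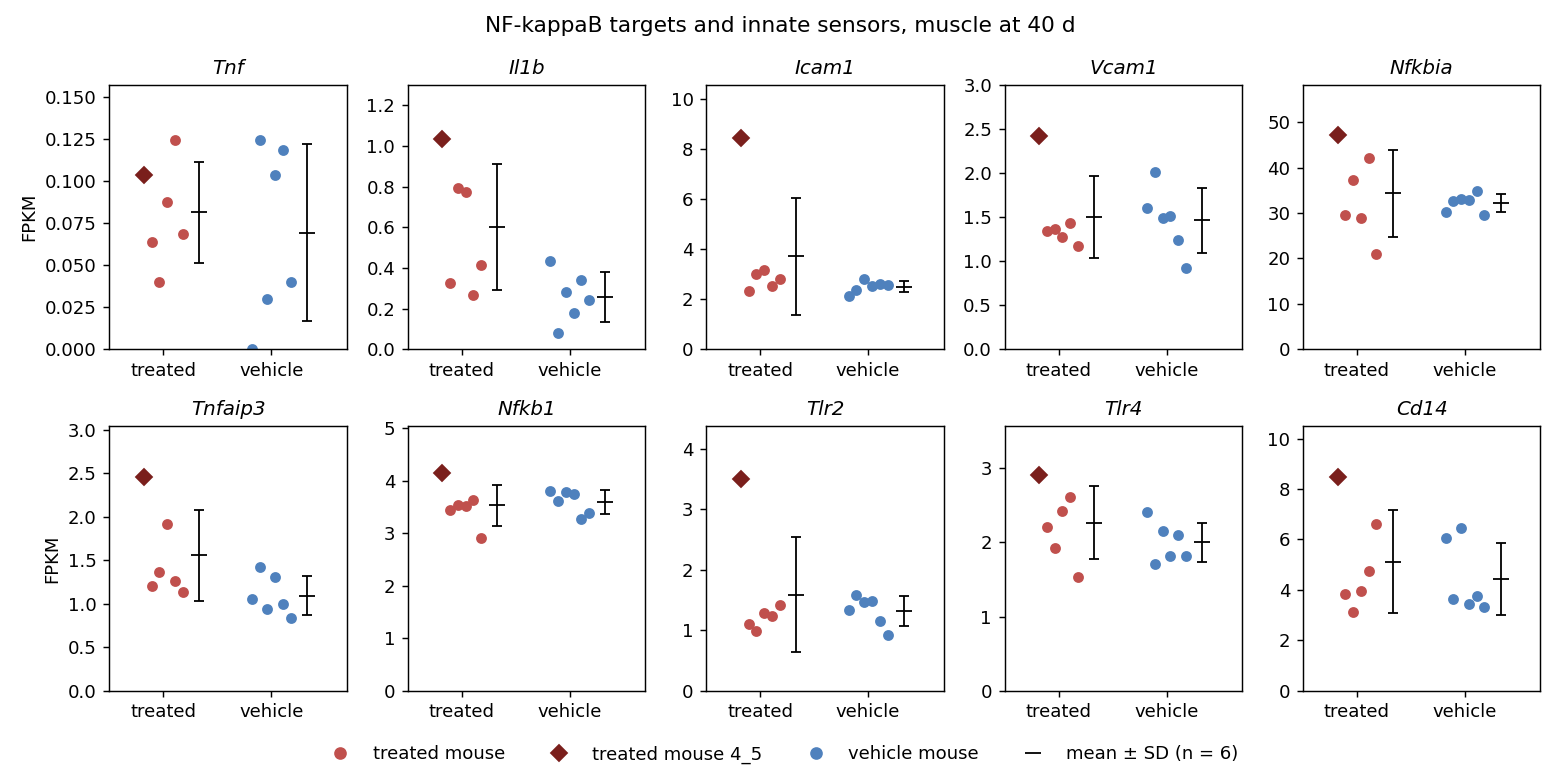
FPKM of the 10 genes in each muscle at 40 d, drawn as for liver. Mouse 4_5 (diamond) has the highest value for 9 of the 10 genes, and its Icam1 of 8.45 FPKM stands farthest from the other treated muscles, which lie between 2.35 and 3.16 FPKM.

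Il1b was below the filter in muscle. Its treated muscles had 0.268, 0.594 and 1.04 FPKM as lowest, median and highest, against 0.0803, 0.262 and 0.434 FPKM in vehicle muscles. The values rest on 10 to 35 reads in treated and 3 to 14 reads in vehicle muscles, and those of mice 4_5, 5_2 and 5_3 lay above every vehicle muscle. An exact permutation test gave p = 0.0368 (two-sided, unadjusted), and with a filter of 0.1 FPKM limma's adjusted p was 1. Without mouse 4_5 the treated mean was 0.516 FPKM, against 0.259 FPKM in vehicle muscles (exact permutation p = 0.0563). Tnf was at 0.0402 to 0.125 FPKM in treated muscles and 0 to 0.125 FPKM in vehicle muscles, at most 4 reads in any library (exact permutation p = 0.604, and 0.751 without mouse 4_5), so a difference was not detectable at this depth.

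For Icam1 in muscle the lowest, median and highest values were 2.35, 2.93 and 8.45 FPKM in treated and 2.13, 2.56 and 2.80 FPKM in vehicle libraries. Apart from mouse 4_5, the treated muscles of mice 5_2, 5_3 and 5_5 lay just above every vehicle muscle, at 2.83 to 3.16 FPKM. Its log2 fold change was 0.33 (SE 0.20), and 0.11 without mouse 4_5. Tnfaip3 had 1.13, 1.31 and 2.45 FPKM in treated muscles, against 0.829, 1.03 and 1.42 FPKM in vehicle muscles. All 6 treated muscles lay above the vehicle mean of 1.09 FPKM, as in liver, and 2 of them above every vehicle muscle. The log2 fold change of Tnfaip3 was 0.27 (SE 0.12, limma unadjusted p 0.0455), and 0.18 without mouse 4_5.

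The other muscle values were closer to vehicle. Nfkbia spread widely among treated muscles, with 20.9, 33.5 and 47.2 FPKM as lowest, median and highest, against 29.5, 32.7 and 34.8 FPKM in vehicle muscles. Of the treated muscles 3 lay above and 2 below every vehicle muscle, and the mean was 34.3 ± 9.65 FPKM in treated and 32.2 ± 2.01 FPKM in vehicle muscles. Log2 fold changes were 0.15 for Cd14, 0.11 for Tlr4, 0.10 for Tlr2, 0.04 for Nfkbia, 0.02 for Vcam1 and -0.02 for Nfkb1. Without mouse 4_5 these were 0.01, 0.06, -0.07, -0.06, -0.07 and -0.06, so that Tlr2, Nfkbia and Vcam1 turned negative. Some marker lists of leukocytes were also high in mouse 4_5. Its monocyte and macrophage markers summed to 417 FPKM, against 119 to 204 in the other treated muscles and 138 to 225 in vehicle muscles. Kupffer cell markers summed to 299 FPKM in mouse 4_5, 104 to 276 in the other treated muscles and 131 to 205 in vehicle muscles. T, B and NK cell markers were not highest in mouse 4_5. They summed to 1.91 FPKM there, 0.815 to 2.09 in the other treated muscles and 0.900 to 2.12 in vehicle muscles. Neutrophil markers summed to 63.7 FPKM in mouse 4_5, 12.2 to 39.2 FPKM in the other treated muscles and 6.36 to 14.0 FPKM in vehicle muscles, and red cell markers to 340 FPKM in mouse 4_5, 749 to 2348 FPKM in the other treated muscles and 485 to 1015 FPKM in vehicle muscles. The part of these in the values was not tested. Clec4f, which marks Kupffer cells, was at 0 in every treated muscle at 40 d, but not in every vehicle muscle.

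**Figure D3:**
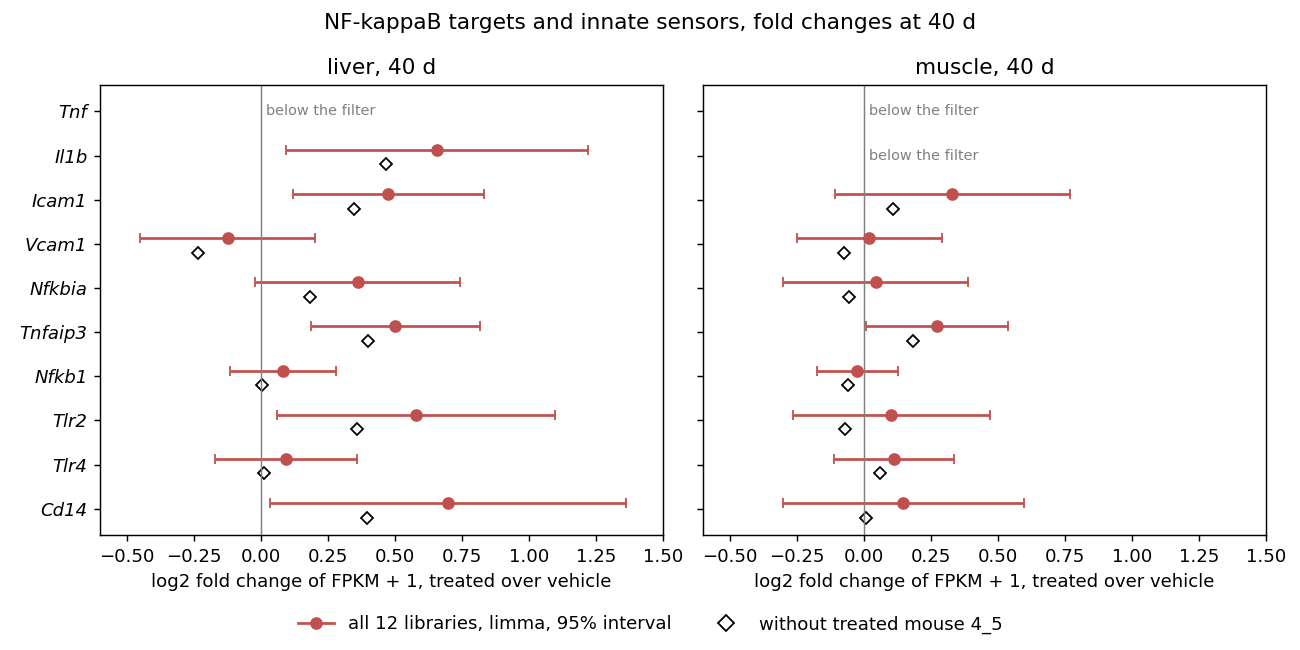
Log2 fold changes of FPKM + 1, treated over vehicle, at 40 d in liver (left) and muscle (right), with limma's 95% interval over all 12 libraries (filled) and the value without treated mouse 4_5 (open). Leaving out that mouse moves every tested value down, and in muscle it brings all but Icam1 and Tnfaip3 to between -0.07 and 0.06.

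Of the pathway lists no tested gene was called in muscle. Positive log2 fold changes were 9 of 14 for subunits, IkB proteins and kinases, 10 of 14 for feedback regulators, 4 of 13 for Toll-like receptors and adaptors, 6 of 10 for cytosolic sensors, 3 of 7 for TNF and IL-1 receptors and 8 of 15 for further targets, against 48.6% of all genes. Without mouse 4_5 these counts were 8, 8, 3, 6, 3 and 9. Tmem173, which encodes the DNA-sensing adaptor STING, averaged 3.84 FPKM in treated muscles and 2.88 FPKM in vehicle muscles. Rel, the gene of the subunit c-Rel, averaged 1.52 FPKM in treated muscles and 1.06 FPKM in vehicle muscles, and Lcn2 4.95 and 1.49 FPKM. Plau, which encodes the urokinase-type plasminogen activator, averaged 20.3 FPKM in treated muscles and 26.2 FPKM in vehicle muscles. Each had a limma adjusted p of 0.999.

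Whether the effect differed between tissues was tested as a contrast in limma over the 24 libraries at 40 d. None of the 8 genes tested in both tissues passed (limma adjusted p 0.997 for each), and of all 9436 genes 1 did, or 0.0106%. The effect in liver minus that in muscle on the log2 scale was 0.55 for Cd14 (SE 0.39), 0.48 for Tlr2 (SE 0.31), 0.32 for Nfkbia (SE 0.25) and 0.23 for Tnfaip3 (SE 0.20). For Icam1, Nfkb1, Tlr4 and Vcam1 it lay between -0.14 and 0.15. This fit took the 24 libraries as independent, though liver and muscle share mouse numbers. With the number as a block, limma's adjusted p for the 8 genes was 0.691 to 0.996, and the SE was 0.23 for Cd14 and 0.19 for Tlr2.

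Liver and muscle libraries carry the same mouse numbers, so values were also set side by side by number. The labels do not say that a number is 1 animal, and this comparison was chosen after the data had been seen. For Il1b, treated mice 4_5 and 5_2 were the highest pair in both tissues and mouse 5_4 was the lowest treated mouse in both. In muscle the order rests on few reads, with mouse 5_2 (0.794 FPKM, 23 reads) near 5_3 (0.774 FPKM, 31 reads). Mouse 5_4 (10 reads) was likewise near 5_1 (12 reads). For Il1b, Pearson's r over the 12 numbers was 0.838 (permutation p = 0.00062, adjusted p = 0.00565 over the 10 genes) with rho = 0.818 (permutation p = 0.00146, adjusted p = 0.0146). It was 0.725 without mouse 4_5 and 0.544 without the 2 numbers farthest from the liver median. Within the 6 treated numbers r was 0.858 and within the 6 vehicle numbers 0.185. Icam1 had r = 0.814 (permutation p = 0.00113, adjusted p = 0.00565) with rho = 0.629 (permutation p = 0.0324, adjusted p = 0.162), and 0.669 without mouse 4_5. Cd14 and Tnfaip3 also passed with Pearson's r (0.649 and 0.708, adjusted permutation p = 0.0396 and 0.0365) and not with rho (adjusted permutation p = 0.352 and 0.219). Without the 2 farthest numbers r was 0.018 for Cd14, so that it rested on those, and 0.672 for Tnfaip3. The other 6 genes passed with neither measure. Without mouse 4_5 r was 0.310 for Cd14 and 0.461 for Tnfaip3. Within the 6 treated numbers r was 0.808 for Icam1, 0.764 for Cd14 and 0.598 for Tnfaip3. Within the 6 vehicle numbers it was 0.404, 0.477 and 0.285. How often all genes would pass was not computed, so the genes that passed have no share beside them.

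**Figure D4:**
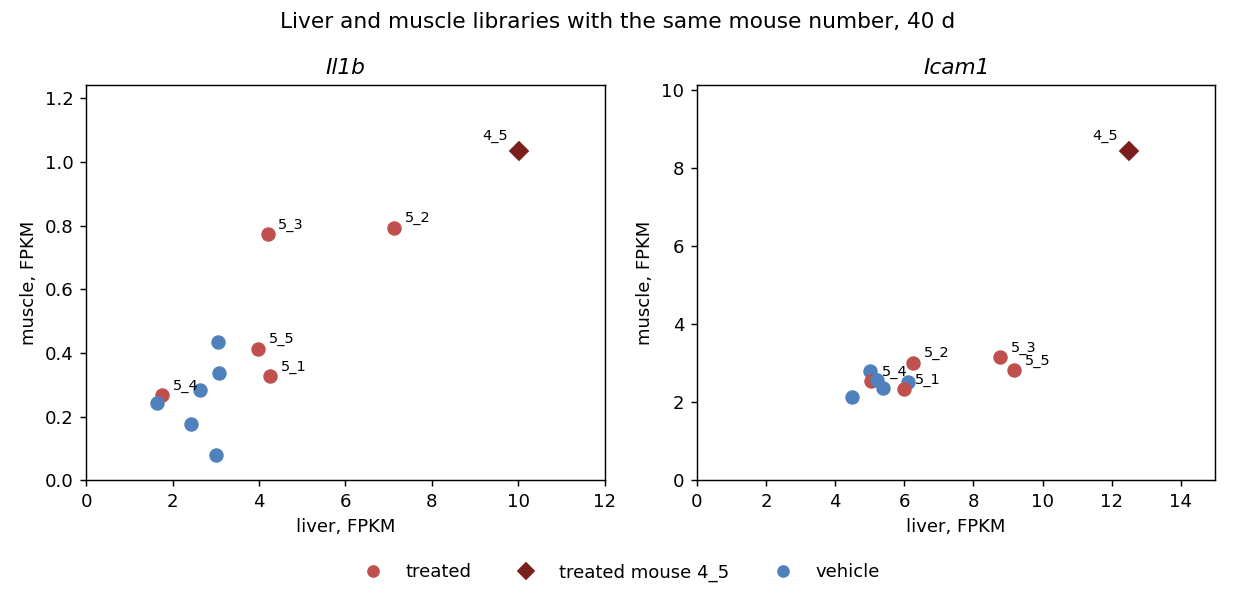
FPKM of Il1b (left) and Icam1 (right) in liver (horizontal) and muscle (vertical) for the 12 mouse numbers at 40 d, with treated numbers labelled. For Il1b mice 4_5 and 5_2 lie above the other 10 numbers in both tissues, though in muscle mouse 5_2 only just exceeds mouse 5_3. For Icam1 mouse 4_5 alone stands high in muscle.

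At 24 h each group had 1 library per tissue, so no test was made, intervals cover counting error only, and a difference has no replicate check. In liver the 9 genes that averaged at least 1 FPKM had log2 ratios from -0.18 to 0.40, with a median of 0.02 against 0.04 over 12353 genes. None passed 2-fold, which 240 of all genes did, or 1.94%. Il1b was at 1.94 FPKM in the treated liver and 1.23 FPKM in the vehicle liver, or 52 and 38 reads, a ratio of 1.57 (95% counting interval 1.02 to 2.46). Icam1 was at 9.85 FPKM in the treated liver and 8.01 FPKM in the vehicle liver (ratio 1.23, 1.10 to 1.38), and Nfkbia at 40.7 and 46.2 FPKM (ratio 0.880, 0.807 to 0.960). The sensors Cd14, Tlr2 and Tlr4 had ratios of 0.890, 0.946 and 0.807, and the counting interval of each held 1. Vcam1 had a ratio of 1.11 (1.03 to 1.19) and Nfkb1 one of 1.06 (0.961 to 1.16), and Tnfaip3 was at 3.73 FPKM in the treated liver and 3.66 FPKM in the vehicle liver. Tnf had 2 reads in the treated liver and 16 reads in the vehicle liver, a ratio of 0.144 (0.0160 to 0.612), at means under 1 FPKM. With libraries scaled to equal totals in place of the authors' scaling, the median of all liver genes shifted by -0.14, and Vcam1, Nfkb1 and Tnfaip3, at 0.14, 0.07 and 0.02 under the authors' scaling, became -0.02, -0.07 and -0.11. The log2 ratio of Icam1 was then 0.11 in place of 0.27, and that of Nfkbia -0.35 in place of -0.18. Il1b was at 0.28 in place of 0.40. Cd14, Tlr2 and Tlr4 were at -0.31, -0.21 and -0.27 in place of -0.16, -0.07 and -0.18. The counting intervals are those of the authors' scaling, and whether an interval holds 1 can depend on the scaling.

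In muscle at 24 h 8 genes averaged at least 1 FPKM, with log2 ratios from -0.24 to 0.44 and a median of 0.03 against -0.02 over 12262 genes. None passed 2-fold, against 451 of all genes, or 3.68%. The treated and vehicle muscle libraries at 24 h differed in make-up. Muscle fibre markers summed to 26044 FPKM in the treated muscle and 39023 FPKM in the vehicle muscle. Adipocyte markers summed to 3903 and 2067 FPKM, and mitochondrial genes took 10.97% and 6.94% of reads. Endothelial markers were close, at 179 and 186 FPKM. The part of make-up in the ratios at 24 h was not tested. Vcam1 had the highest ratio, at 2.76 FPKM in the treated muscle and 1.77 FPKM in the vehicle muscle (ratio 1.56, 1.32 to 1.84). Icam1 was at 3.76 FPKM in the treated muscle and 2.97 FPKM in the vehicle muscle (ratio 1.27, 1.05 to 1.53). Nfkbia had the lowest ratio, at 47.8 FPKM in the treated muscle and 56.8 FPKM in the vehicle muscle (ratio 0.842, 0.779 to 0.911). Counting intervals of Tlr2, Tlr4, Cd14, Nfkb1 and Tnfaip3 held 1, and their ratios lay between 0.898 and 1.04. Il1b had 7 reads in the treated muscle and 4 reads in the vehicle muscle (ratio 1.84, 0.467 to 8.56), and Tnf 3 reads and 1 read (ratio 3.15, 0.253 to 165), both at means under 1 FPKM. Under either scaling Icam1 had a ratio above 1 and Nfkbia a ratio below 1 in both tissues, each in a single pair of libraries per tissue.

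**Figure D5:**
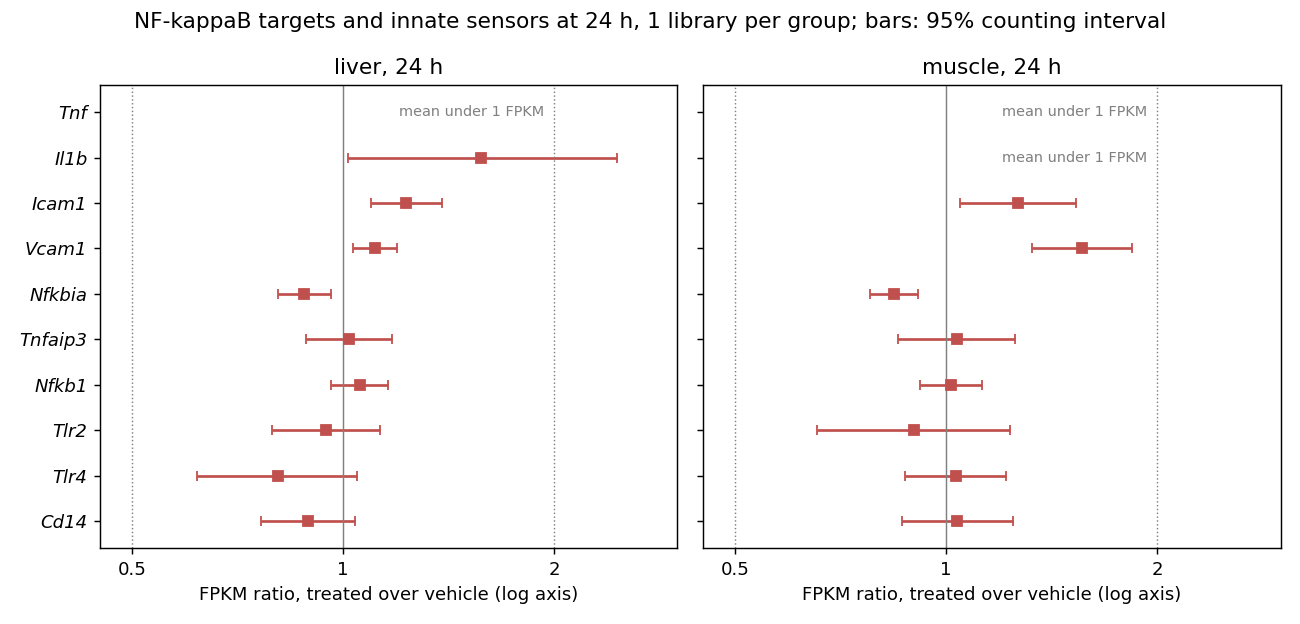
FPKM ratio, treated over vehicle, at 24 h in liver (left) and muscle (right) on a log axis, with 95% counting intervals from the reads of 1 library per group, for genes that averaged at least 1 FPKM in the tissue. Every point drawn lies between the dotted lines that mark 2-fold in either direction.

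The 24 h table holds both tissues on 1 scale. Il1b was 7.92 times as high in liver as in muscle in the treated libraries and 9.24 times in the vehicle libraries. Vcam1 was 4.31 and 6.05 times as high, Tlr2 3.25 and 3.09 times, Icam1 2.62 and 2.70 times, Tnfaip3 1.87 and 1.90 times, and Cd14 1.32 and 1.54 times. Tnf had at most 16 reads in any of the 4 libraries and was not compared. Tlr4 went the other way, at 1.29 FPKM in liver and 3.45 FPKM in muscle of the treated libraries, and 1.60 and 3.35 FPKM in the vehicle libraries. Nfkbia and Nfkb1 were close between tissues, with liver over muscle at 0.851 and 1.18 in the treated libraries and 0.815 and 1.14 in the vehicle libraries.

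By level, the order in vehicle livers at 40 d was Nfkbia (23.6 FPKM), Cd14 (10.3), Vcam1 (7.95), Icam1 (5.22), Tlr2 (3.21), Nfkb1 (2.65), Il1b (2.64), Tnfaip3 (1.75), Tlr4 (1.15) and Tnf (0.516 FPKM). Only Nfkbia and Cd14, Vcam1 and Icam1, and Icam1 and Tlr2 were neighbours whose libraries did not overlap. In treated livers the order was Nfkbia (32.0 FPKM), Cd14 (20.3), Icam1 (7.96), Vcam1 (7.28), Tlr2 (5.87), Il1b (5.22), Tnfaip3 (2.98), Nfkb1 (2.89), Tlr4 (1.29) and Tnf (0.567 FPKM), and every pair of neighbours but Nfkb1 and Tlr4 overlapped. Vehicle muscles kept Nfkbia (32.2 FPKM) and Cd14 (4.44 FPKM) at the top and Il1b (0.259 FPKM) and Tnf (0.0693 FPKM) at the bottom, as did treated muscles with 34.3, 5.12, 0.602 and 0.0813 FPKM.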

How the data were processed

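Libraries were made with a NEBNext Ultra kit from Trizol RNA, per the labels' protocols, and the submitters' processing notes name builds GRCm38 and mm10. The sources used here do not name the aligner or the counter, or say whether counting used strand. The authors deposited FPKM values per gene in 3 tables, per the file headers, 1 per tissue at 40 d and 1 for 24 h, which were tested separately because they were scaled separately. All 28 value columns were used. FPKM times gene length came out as whole numbers of reads in 100% of cases (tolerance 0.01), so reads per gene were recovered. Libraries within a group differed by far more than sampling noise (chi-square of at least 13.37 per degree of freedom), so no 2 libraries of a group at 40 d were 1 library deposited under 2 labels. Libraries of different groups were not compared in this way. The labels number the mice, and libraries of a tissue are taken as separate animals. The p-values measure the spread between these libraries.

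Tests per gene used log2(FPKM + 1) and limma 3.58.1 in R 4.3.3, moderated with a trend and two-sided, with Benjamini-Hochberg adjustment over all genes that reached 1 FPKM in at least 6 of 12 libraries. A gene was called at an adjusted p under 0.05. Genes below that filter had an exact permutation test. Correlations used 100000 permutations. At 24 h no test was made, and 2-fold was counted among genes that averaged at least 1 FPKM. Intervals at 24 h are exact 95% intervals of the reads. Tests were checked on simulated data.

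Same-numbered liver and muscle libraries correlated, after group means were taken out, with a median r of 0.149 over 12 numbers and above 0.1 in 7. The labels do not say that a number is 1 animal, so numbers were not taken as pairs in the main tests. The r does not settle whether they are pairs. Alternatives were a pseudocount of 0.1, filters, voom on recovered reads, equal library totals, the number as a block and leaving out each library. For the difference between tissues, each mouse number was left out of both tissues at once. The genes, the lists of pathway genes and markers, and the tests were chosen with earlier results of these data known. All 10 genes are accounted for at 40 d and at 24 h. Of a pathway list, genes were named from the 3 with the smallest p in each tissue, and of marker lists from the 2 with the highest mean. Promoters are from RefSeq, and overlaps between genes from GENCODE annotation of GRCm38. Other steps used Python 3.11.15 with SciPy 1.17.1, NumPy 2.4.6 and pandas 2.3.3, and figures matplotlib 3.10.9.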

Additional observations from a re-analysis of the deposited data

Results flagged for a closer look

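Within groups of 6 libraries, 7 values of the 10 genes lay far from the others of their group, by a gap to the nearest library above Dixon's critical share of the range for 6 values. All 40 groups at 40 d were examined, and chance flags about 1 in 20. Mouse 4_5 gave 6 of the 7. In treated liver these were Nfkbia at 57.3 FPKM (the other treated livers lay at 23.7 to 31.4 FPKM), Cd14 at 51.1 FPKM (9.18 to 18.4 FPKM) and Nfkb1 at 4.07 FPKM (2.45 to 3.01 FPKM). In treated muscle of the same number they were Icam1 at 8.45 FPKM (2.35 to 3.16 FPKM), Vcam1 at 2.43 FPKM (1.17 to 1.44 FPKM) and Tlr2 at 3.50 FPKM (0.983 to 1.42 FPKM). The remaining value was Vcam1 in the liver of vehicle mouse 2_1, at 11.2 FPKM, against 6.72 to 8.06 FPKM in the other vehicle livers.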

How the results depend on the processing

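None of the 9 genes tested in liver and 8 in muscle passed limma's threshold at 40 d under any alternative run, and none of the 9 in liver turned its direction. Tnf and, in muscle, Il1b were fitted with limma only where the filter admitted them, and did not pass (limma adjusted p 0.925 to 1). The count of all genes called in liver, 28, was 0 with no filter and ran from 0 (without vehicle mouse 2_3 or treated mouse 5_3) to 83 (without treated mouse 5_2) when each library was left out. Without vehicle mouse 2_1 it was 2, without 3_2 1, without 2_5 8, without 2_4 or 6_1 15, and without treated mice 5_1, 5_4 and 5_5 17, 16 and 13. In muscle the count of 0 was 1 with equal totals and 0 to 1 with a library left out. Directions turned in muscle, where Nfkb1 was 0.0073 with equal totals and -0.0616 to 0.0166 with a library left out, Vcam1 -0.0744 to 0.0808, Nfkbia -0.0556 to 0.1716 and Tlr2 -0.0697 to 0.1668. For the difference between tissues, with the mouse number as a replicate block 3 genes were called, against 1 without the block, and limma's adjusted p for the 8 genes was 0.691 to 0.996. Under that block Tlr2 was 0.48 (SE 0.19, limma unadjusted p 0.0258) and Cd14 0.55 (SE 0.23, limma unadjusted p 0.0328), against SEs of 0.31 and 0.39 without the block. Without the block, the count of genes called ran from 0 to 2 when a mouse number was left out of both tissues. Of the 12 numbers, 7 liver libraries correlated best with the muscle of their own number, a hint from the data and not from the design. The Tlr4 difference was 0.0088 with a pseudocount of 0.1 and -0.0711 to 0.051 with a mouse number left out of both tissues. At 24 h, with a pseudocount of 0.1, 410 genes passed 2-fold in liver and 720 in muscle, and none of the 10 genes was among them at a mean of at least 1 FPKM. The cause of these moves was not tested. Depth limits Tnf in both tissues and Il1b in muscle.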
